A study of Homo sapiens with 12 samples.

Results

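MHC class I molecules carry peptides from inside the cell to its surface, where cytotoxic T cells and NK cells read them. A heavy chain (HLA-B, HLA-C or HLA-E among the genes here) pairs with the light chain β2-microglobulin (B2M). The peptides are cut by the proteasome, in which the interferon-inducible subunits PSMB8 and PSMB9 can replace constitutive ones, and the transporter formed by TAP1 and TAP2 moves them into the endoplasmic reticulum. NLRC5 is a transactivator of class I genes that acts at a promoter module of W/S, X1, X2 and Y boxes, and interferons raise the whole set.

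These 9 genes were picked by name (HLA-B, HLA-C, HLA-E, B2M, TAP1, TAP2, PSMB8, PSMB9 and NLRC5) from a table of 38021 gene names. Each occupied 1 line of the table, and all 9 were among the 16838 genes with enough counts to test. RNA was sequenced from 786-O cells, a human clear cell renal carcinoma line that lacks functional VHL, and from WT8 cells, which are 786-O cells that express wildtype VHL, the substrate receptor of the ubiquitin ligase that removes HIFα. Both lines carried a PLKO.1 lentivirus and were kept in puromycin and serum. The virus encoded either shControl, called a scramble in the sample descriptions, or an shRNA against BMAL1 (shBMAL1), a clock transcription factor of the bHLH-PAS family. The 4 groups were 786-O shControl, 786-O shBMAL1, WT8 shControl and WT8 shBMAL1, each with 3 libraries labelled as biological replicates. WT8 is a single derived line, and shControl is the one control virus, so a difference between lines or viruses cannot be told apart from a difference between those particular derivatives. Whether replicates were separate infections is not stated, so the p-values measure the spread between these cultures.

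Total counts ran from 33182005 to 36477484 per library. Values below are in CPM, the counts of a gene relative to the TMM-scaled library total, with the standard deviation (SD) over 3 libraries, and changes are log2 with their standard error (SE) from edgeR. A gene was called when the quasi-likelihood test of edgeR gave it an adjusted p (Benjamini-Hochberg, all genes) under 0.1. The target BMAL1, listed as ARNTL, had 13.5, 10.8 and 12 CPM in 786-O shControl against 4.08, 3.68 and 4.05 CPM in 786-O shBMAL1, and 9.02, 10.3 and 8.40 against 1.49, 1.92 and 1.55 CPM in WT8. VHL had 17.6 to 21.3 CPM in the 6 786-O libraries, 915.5 to 1019 CPM in WT8 shControl and 631 to 661 CPM in WT8 shBMAL1, so VHL transcript also moved with shBMAL1 in WT8 (-0.60, SE 0.05, adjusted p 6.67e-13), while BMAL1 fell further in WT8 than in 786-O (interaction -0.86). Of 6 markers of renal carcinoma lines, 6 had more than 3 counts in 786-O and 5 in WT8, where CA9, a HIF target, was at 0. Their summed level was 5495 to 5925 CPM in 786-O. In WT8 it was 4306 to 4341 CPM with shControl and 3413 to 3538 CPM with shBMAL1. VIM made up the largest part of this sum in each group. It averaged 4480 CPM in 786-O and 1947 CPM in WT8, both with shControl. Between these control groups, VIM, KRT8 and CA9 were called lower in WT8, but 3 markers were called higher. PAX8 averaged 1334 CPM in WT8 against 313 CPM in 786-O, PAX2 24.8 against 13.5 CPM and KRT18 479 against 254 CPM. The part of VHL level, of the depth of the knockdown and of these markers in the results for WT8 was not tested. The leukocyte markers PTPRC, CD3E and LYZ had at most 3 counts in every group, and CD14 averaged at most 0.436 CPM. CD68, a lysosomal protein of macrophages that other cells also express, made up nearly all of the leukocyte sum, which was 41.1 to 43.1 CPM in 786-O shControl, 31.8 to 36.2 CPM in 786-O shBMAL1, 25.8 to 31.9 CPM in WT8 shControl and 17.5 to 21.9 CPM in WT8 shBMAL1. CD68 thus fell with shBMAL1, at -0.33 (SE 0.08, adjusted p 9.26e-04) in 786-O and -0.60 (SE 0.08, adjusted p 9.41e-08) in WT8. So did 8 of the 9 members in each line, against 24.4% of all genes called lower in 786-O and 36.9% in WT8. The part of CD68 in the results was not tested. Endothelial markers summed to at most 1.47 CPM and fibroblast markers to 11.3 to 14.2 CPM in 786-O and 8.15 to 11.3 CPM in WT8.

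The promoters are shown first because class I genes are known to share control elements there. RefSeq windows on GRCh38.p14, from 250 bases before to 50 after a transcription start, were found for 7 of the 9 genes (9 windows), and HLA-E and NLRC5 had no entry. Both strands were searched for an interferon response element (GAAANNGAA or GAANNGAAA, forms that can overlap each other), NF-kB letters (GGGNNTTNC), the X2 box core (TGACG), the Y box (CCAAT), the E-box (CACGTG), which BMAL1 and CLOCK bind, and the core of the hypoxia response element (ACGTG), which is also part of the E-box. The windows of HLA-B and HLA-C, the light chain and both transporter chains (1 of 2 for TAP1) follow, 5′ to 3′ on the strand of the gene, with capitals on the interferon, NF-kB, X2 and Y letters.
HLA-B (chr6:31357130-31357429, minus strand): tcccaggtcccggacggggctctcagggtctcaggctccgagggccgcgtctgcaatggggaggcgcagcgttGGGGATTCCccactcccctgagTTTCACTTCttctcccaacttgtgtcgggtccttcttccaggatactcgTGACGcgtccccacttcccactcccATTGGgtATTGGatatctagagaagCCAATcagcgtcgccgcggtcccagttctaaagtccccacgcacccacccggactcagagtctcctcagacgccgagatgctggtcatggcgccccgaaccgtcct
HLA-C (chr6:31272043-31272342, minus strand): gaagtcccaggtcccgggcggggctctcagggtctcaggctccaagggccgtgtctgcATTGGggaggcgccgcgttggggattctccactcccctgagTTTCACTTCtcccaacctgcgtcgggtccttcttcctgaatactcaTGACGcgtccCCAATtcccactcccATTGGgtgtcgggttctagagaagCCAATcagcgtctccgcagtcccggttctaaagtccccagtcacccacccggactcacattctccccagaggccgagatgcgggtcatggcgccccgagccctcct
B2M (chr15:44711267-44711566, plus strand): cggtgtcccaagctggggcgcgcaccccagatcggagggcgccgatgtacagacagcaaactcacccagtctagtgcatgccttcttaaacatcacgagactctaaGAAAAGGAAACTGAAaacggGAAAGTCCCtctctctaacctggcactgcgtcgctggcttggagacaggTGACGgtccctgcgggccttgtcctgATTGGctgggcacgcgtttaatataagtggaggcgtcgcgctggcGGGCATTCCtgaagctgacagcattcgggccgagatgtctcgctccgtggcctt
TAP1 (chr6:32853655-32853954, minus strand): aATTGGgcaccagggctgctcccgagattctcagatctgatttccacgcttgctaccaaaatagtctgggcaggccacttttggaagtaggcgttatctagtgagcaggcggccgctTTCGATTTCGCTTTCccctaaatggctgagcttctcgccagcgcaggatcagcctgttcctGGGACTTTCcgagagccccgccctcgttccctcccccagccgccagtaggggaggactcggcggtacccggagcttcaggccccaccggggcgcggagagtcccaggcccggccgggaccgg
TAP2 (chr6:32838690-32838989, minus strand): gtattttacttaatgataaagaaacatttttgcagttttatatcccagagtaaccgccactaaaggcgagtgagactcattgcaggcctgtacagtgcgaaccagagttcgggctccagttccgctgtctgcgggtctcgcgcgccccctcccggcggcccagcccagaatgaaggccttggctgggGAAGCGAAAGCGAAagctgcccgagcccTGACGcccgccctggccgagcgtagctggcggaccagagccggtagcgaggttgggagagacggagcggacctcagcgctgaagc

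From 5′ to 3′, HLA-B held NF-kB letters at -172.5 bases from the start, interferon letters at -150.5, X2 letters at -103.5 and Y boxes at -78.5, -71.5 and -53.5, each given by its centre. HLA-C held interferon letters at -146.5 and X2 letters at -102.5, within 4 bases of those of HLA-B, with Y boxes at -189.5, -92.5, -77.5 and -53.5 and no NF-kB letters. B2M held interferon letters at -139.5 and -133.5, NF-kB letters at -119.5 and 0.5, X2 letters at -72.5 and a Y box at -46.5. In these 3 windows interferon letters came before X2 letters, and a Y box came after both, while the NF-kB and further Y letters differed between them. TAP1 had a window for each of 2 starts. The printed one held a Y box at -246.5, interferon letters at -128.5 and -122.5 and NF-kB letters at -67.5, with no X2 letters, and the other (chr6:32852712-32853011) held none of the letters searched. TAP2 had interferon letters at -58.5 and -53.5 and X2 letters at -32.5, with neither NF-kB letters nor a Y box. PSMB8 also had a window for each of 2 starts, the first with NF-kB letters at -159.5 and interferon letters 1.5 and 6.5 bases past the start, the second with X2 letters at -66.5. PSMB9 had a Y box at -240.5 and X2 letters at -141.5 but no interferon letters in its window. It was the only one of the 7 genes with hypoxia core letters, at -109.5. Its window (chr6:32853942-32854241, plus strand) overlaps the 5′ end of the printed TAP1 window on the opposite strand. The Y box at -240.5 and that of TAP1 at -246.5 are the same bases. The interferon letters of TAP1 lie between the starts of both genes, outside the PSMB9 window. One form or the other of the interferon letters stood in 6 of the 9 windows, against 14.5% of all 35116 windows (8.11% and 7.66% for each form). NF-kB letters are in 16.2% of all windows, X2 letters in 24.6%, Y box letters in 34.6%, hypoxia core letters in 21.4% and the E-box in 7.26%, and none of the 9 windows held an E-box. A match of letters describes the sequence and does not show that a factor binds there.

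**Figure D1:**
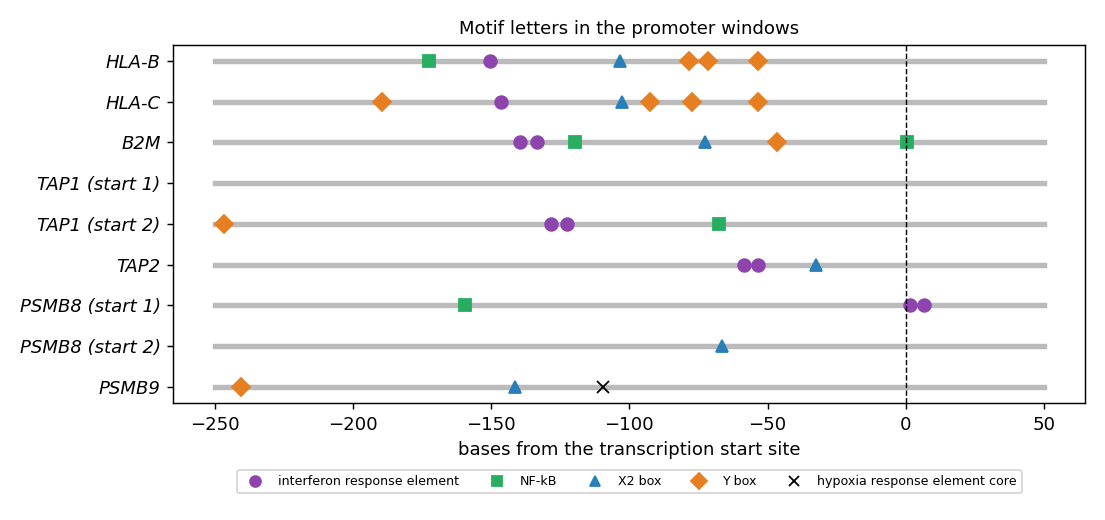
Motif letters in the 9 promoter windows of 7 genes, plotted by the distance of their centre from the transcription start (x axis, bases), with 1 line per window and 1 symbol per match. Interferon letters stand upstream of the start in HLA-B, HLA-C, B2M, TAP2 and the second TAP1 window, and at the start in the first PSMB8 window. The PSMB9 window holds none. It overlaps the second TAP1 window on the opposite strand, and the leftmost Y box of each is the same bases.

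To ask whether loss of BMAL1 changed the class I pathway, shBMAL1 was compared with shControl in each line. In 786-O, 8 of the 9 genes fell and HLA-E did not pass the test, with the largest falls in PSMB9 (log2 -0.74), TAP1 (-0.68) and PSMB8 (-0.52). In WT8 all 9 were called. There HLA-B, HLA-C and HLA-E fell most (log2 -1.34, -1.10 and -1.0), 8 genes fell in all, and TAP2 rose (log2 0.64). The call was common in these data: 48.9% of all tested genes were called in 786-O (24.5% higher, 24.4% lower) and 69.8% in WT8 (32.9% higher, 36.9% lower), so the number of members called is to be read against a large background. The median log2 change of the 9 genes was -0.36 in 786-O and -0.65 in WT8, against 0.00 and -0.04 over all genes tested. The shBMAL1 and shControl libraries did not overlap for 8 of 9 genes in 786-O and 9 of 9 in WT8, against 50.9% and 67.6% of all genes. With a fold over 1.5 required in the same test, 0 of the 9 genes were called in 786-O and 4 in WT8 (HLA-B, HLA-C, HLA-E and TAP1, all lower). Under that requirement 5.88% of all genes tested were called in 786-O (3.14% lower) and 25.6% in WT8 (15.6% lower). Less transcript per cell and a smaller share of cells that express a gene cannot be told apart in bulk RNA.

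**Figure D2:**
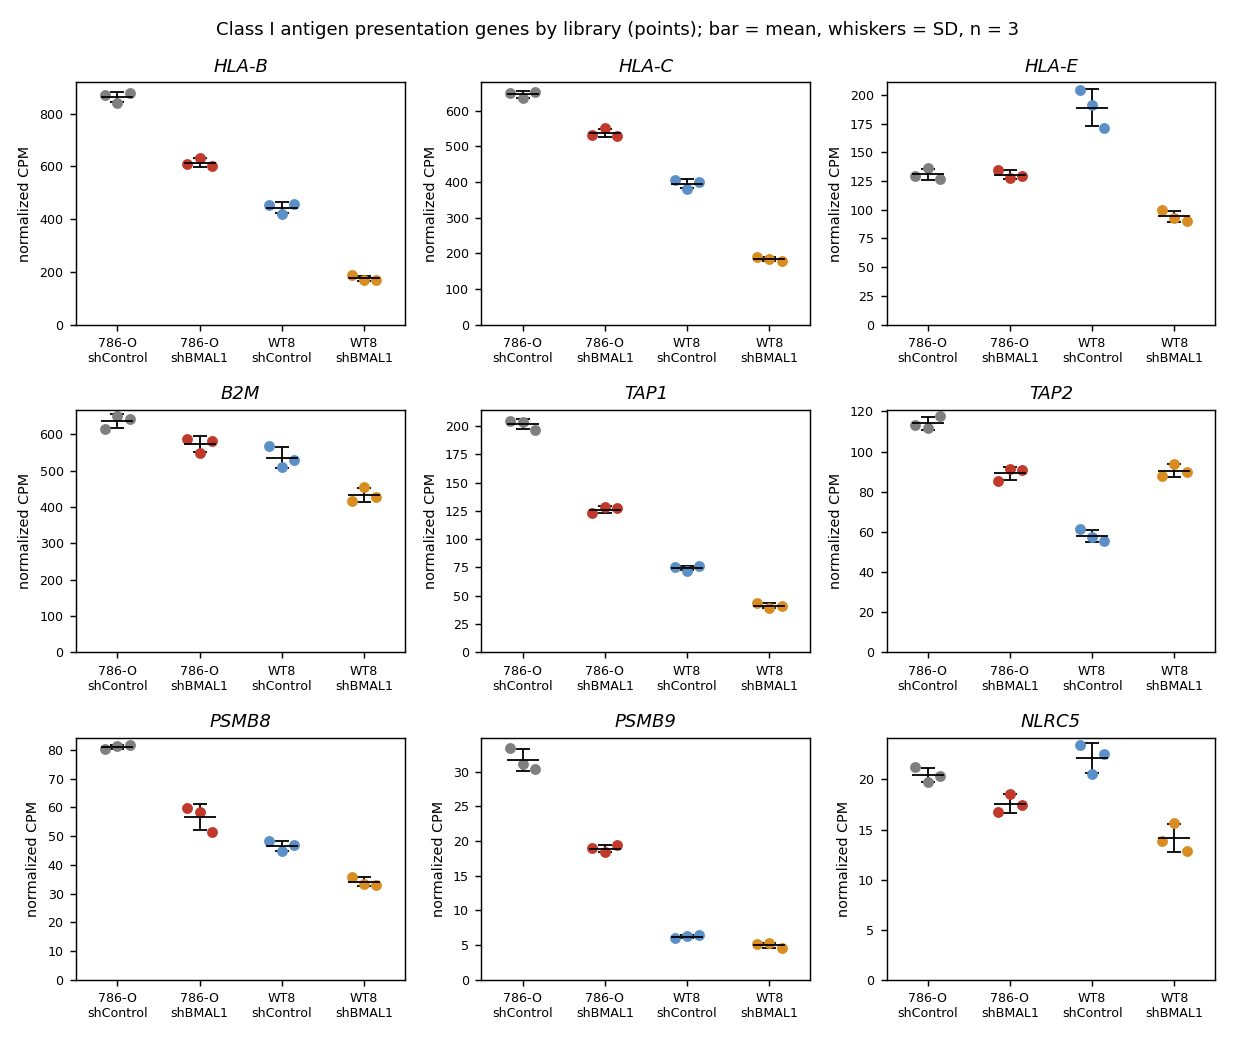
Normalized CPM (y axis, from 0) of the 9 class I pathway genes in each of the 12 libraries (points), by group on the x axis, with the mean (bar) and SD (whiskers, n = 3). HLA-B, HLA-C, TAP1, PSMB8 and PSMB9 step down from 786-O shControl to WT8 shBMAL1 without overlap, HLA-E stands highest in WT8 shControl, and TAP2 stands lowest there.

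Among the heavy chains, HLA-B, a classical class I molecule that presents peptides to T cells (chromosome 6, 31321649 to 31334844, minus strand, GRCh37), had 869, 840.4 and 878 CPM in 786-O shControl and 608, 632 and 601 CPM in 786-O shBMAL1. WT8 had 452, 419 and 458 CPM with shControl and 186, 169 and 169.7 CPM with shBMAL1. All 4 groups were separate, and WT8 shBMAL1 was lowest. The log2 change with shBMAL1 was -0.49 (SE 0.04, adjusted p 1.94e-11) in 786-O and -1.34 (SE 0.05, adjusted p 3.37e-24) in WT8, which are 1.41-fold and 2.53-fold decreases. The fall was larger in WT8: the interaction, the change in WT8 minus that in 786-O, was -0.85 (SE 0.06, adjusted p 6.74e-14).

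HLA-C, a classical heavy chain that is also the major ligand of NK cell KIR receptors (chromosome 6, 31236526 to 31239907, minus strand), followed HLA-B. It had 651, 635 and 653 CPM in 786-O shControl, and the 786-O shBMAL1 libraries had 532, 552 and 529 CPM. In WT8 shControl it had 407, 382 and 399 CPM, and in WT8 shBMAL1 189.6, 184 and 179.6 CPM. Again no group overlapped another. The log2 change was -0.27 (SE 0.04, adjusted p 1.49e-06) in 786-O and -1.10 (SE 0.04, adjusted p 7.88e-23) in WT8, and the interaction was -0.84 (SE 0.06, adjusted p 9.05e-15). These loci are near-identical in long stretches to each other and to further class I loci and differ between people, and how reads with several alignments were assigned is not stated, so the split of reads between them is uncertain. With HLA-B and HLA-C summed to 1 row, an alternative added after the values were seen, the log2 change was -0.39 (SE 0.04, adjusted p 1.07e-09) in 786-O and -1.22 (SE 0.04, adjusted p 6.63e-24) in WT8, and the interaction was -0.83 (SE 0.06, adjusted p 1.94e-14).

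HLA-E, a non-classical heavy chain whose complex with leader peptides is read by CD94/NKG2A on NK cells (chromosome 6, 30457286 to 30461971, plus strand), went another way. In 786-O shControl it had 129, 136 and 127 CPM and in 786-O shBMAL1 135, 128 and 129.5 CPM. The 2 groups overlapped and the change was -0.00 (SE 0.05, adjusted p 0.981). In WT8 the libraries had 204, 191 and 171 CPM with shControl and 99.7, 93.0 and 90.5 CPM with shBMAL1, without overlap, a 2.00-fold decrease with a log2 change of -1.0 (SE 0.05, adjusted p 1.86e-18). The interaction was -0.998 (SE 0.07, adjusted p 6.91e-14). HLA-E was thus the one heavy chain of these 3 whose shBMAL1 change in 786-O missed the threshold.

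B2M, the light chain shared by all class I heavy chains (chromosome 15, 45003556 to 45011049, plus strand), had the smallest of the 9 changes in size in WT8, just under that of PSMB9. In 786-O it had 616, 651 and 643 CPM with shControl and 588, 548 and 583 CPM with shBMAL1. WT8 libraries had 567, 510.4 and 529.9 CPM with shControl and 417, 455 and 428 CPM with shBMAL1. The shBMAL1 libraries lay below their controls in both lines, though by less than for HLA-B or HLA-C. The change was -0.15 (SE 0.04, adjusted p 0.00601) in 786-O and -0.31 (SE 0.04, adjusted p 2.78e-07) in WT8. Its interaction of -0.15 (SE 0.06, adjusted p 0.0419) was lost without any of 5 of the 12 libraries, taken singly (786-O shControl replicate 1, 786-O shBMAL1 replicates 1 and 3, WT8 shControl replicate 1 or WT8 shBMAL1 replicate 1), where it was -0.11 to -0.13 with an adjusted p of 0.106 to 0.173 in edgeR. Per kb of transcript, HLA-B was lower relative to its light chain: the ratio of HLA-B to B2M was 0.792 to 0.867 in 786-O shControl and 0.632 to 0.708 in 786-O shBMAL1. In WT8 it was 0.489 to 0.53 with shControl and 0.228 to 0.274 with shBMAL1. These ratios, and those of TAP1 to TAP2 below, were chosen after the values were seen and were not tested.

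TAP1 and TAP2 form the peptide transporter as a heterodimer. TAP1 (chromosome 6, 32812986 to 32821593, minus strand) had 205, 204 and 197 CPM in 786-O shControl and 123, 128 and 127 CPM in 786-O shBMAL1. With VHL, in WT8, it had 75.0, 72.1 and 76.1 CPM with shControl and 43.6, 39.0 and 40.9 CPM with shBMAL1. The 4 groups did not overlap, and the lowest was WT8 shBMAL1. The log2 change was -0.68 (SE 0.05, adjusted p 1.97e-14) in 786-O and -0.85 (SE 0.05, adjusted p 3.54e-17) in WT8. The interaction of -0.18 (SE 0.07, adjusted p 0.0282) was lost without WT8 shBMAL1 replicate 2 (-0.13, adjusted p 0.147). TAP1 is the only member with counts that were not whole in the table, in all 12 libraries, which were rounded.

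TAP2 (chromosome 6, 32789610 to 32806516, minus strand) had 113, 112 and 118 CPM in 786-O shControl and 85.2, 91.1 and 90.8 CPM in 786-O shBMAL1, a log2 change of -0.36 (SE 0.05, adjusted p 2.78e-07). In WT8 it had 61.3, 57.6 and 55.4 CPM with shControl and 87.9, 94.0 and 89.6 CPM with shBMAL1, a 1.56-fold rise with a log2 change of 0.64 (SE 0.05, adjusted p 1.93e-13). The direction was opposite in the lines, with no overlap in either, and the interaction was 1.00 (SE 0.07, adjusted p 2.18e-14). The ratio of TAP1 to TAP2 per kb was 3.52 to 3.83 in 786-O shControl and 2.94 to 3.04 in 786-O shBMAL1. It was 2.57 to 2.88 in WT8 with shControl and 0.872 to 1.04 with shBMAL1. Both chains were thus at about equal level per kb in WT8 shBMAL1, by canonical transcripts of 2685 bases for TAP1 and 5643 for TAP2. In CPM, TAP2 was above TAP1 there (90.5 against 41.2 on average). TAP1 exceeded TAP2 in each other group by both measures. The equal level depends on these lengths, and the annotation behind the counts is not given. TAP2, PSMB8, TAP1 and PSMB9 lie within 38.0 kb of chromosome 6 (GRCh37, 32789610 to 32827628), and 1977 bases separate the start of TAP2 from the 3′ end of PSMB8. In the annotation TAP2 overlaps an unnamed gene on its own strand, and TAP1, PSMB8 and PSMB9 overlap each other or PSMB8-AS1, and since it is not stated whether strand was used in counting, reads in these overlaps are uncertain.

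PSMB8 (LMP7), the immunoproteasome subunit that replaces PSMB5 (chromosome 6, 32808494 to 32812456, minus strand), had 80.2, 81.5 and 81.6 CPM in 786-O shControl and 59.9, 58.5 and 51.3 CPM in 786-O shBMAL1. In WT8 its levels were 48.2, 44.8 and 47.0 CPM with shControl and 35.9, 33.3 and 33.1 CPM with shBMAL1. In each line all shBMAL1 libraries were below all controls. The log2 change was -0.52 (SE 0.06, adjusted p 3.15e-09) in 786-O and -0.45 (SE 0.06, adjusted p 4.28e-08) in WT8, and the interaction of 0.07 (SE 0.08, adjusted p 0.549) did not pass the test.

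PSMB9 (LMP2), which replaces PSMB6 (chromosome 6, 32811913 to 32827628, plus strand), had the widest range over groups in fold. It had 33.5, 31.1 and 30.4 CPM in 786-O shControl and 19.0, 18.4 and 19.4 CPM in 786-O shBMAL1. WT8 had only 5.98, 6.26 and 6.41 CPM with shControl and 5.10, 5.27 and 4.52 CPM with shBMAL1. The groups were separate in both lines, by a small margin in WT8. The log2 change was -0.74 (SE 0.08, adjusted p 1.25e-09) in 786-O and -0.32 (SE 0.10, adjusted p 0.00566) in WT8, and here the fall was smaller in WT8 by the interaction, 0.42 (SE 0.13, adjusted p 0.00712).

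To relate each inducible subunit to the constitutive subunit it replaces (PSMB10 replaces PSMB7), the count ratios were compared. The log2 ratio of PSMB8 to PSMB5 was lower with shBMAL1 by a difference of -0.40 in 786-O and -0.77 in WT8. For PSMB9 to PSMB6 the difference was -0.65 and -0.90, and for PSMB10 to PSMB7 it was -0.47 and -0.82. In none of the 6 comparisons did the groups overlap, and each gave a two-sided exact permutation p of 0.1, the smallest that 3 against 3 libraries allow, so none can pass 0.05. In WT8 the constitutive subunits rose, by 0.31 (SE 0.05, adjusted p 2.42e-07) for PSMB5, 0.57 (SE 0.04, adjusted p 6.94e-14) for PSMB6 and 0.55 (SE 0.04, adjusted p 3.32e-13) for PSMB7. Both sides of the ratio therefore moved there. In 786-O PSMB5 fell slightly, at -0.12 (SE 0.05, adjusted p 0.0325 in edgeR), which makes the fall in its ratio smaller than that of PSMB8 alone. PSMB6 and PSMB7 averaged 151 and 247 CPM in 786-O shBMAL1 against 161 and 248 CPM in 786-O shControl.

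**Figure D3:**
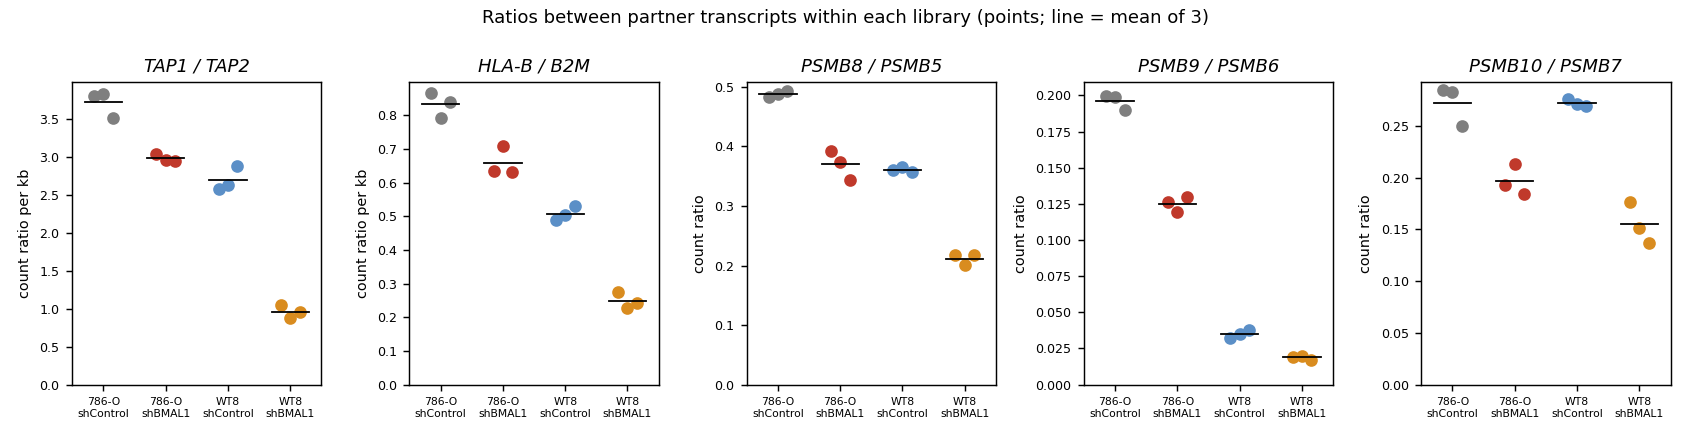
Ratios of counts between partner genes in each library (points; line, mean of 3), with groups on the x axis and the ratio from 0 on the y axis, per kb of transcript for TAP1 to TAP2 and HLA-B to B2M. TAP1 to TAP2 is 3.52 to 3.83 in 786-O shControl and 0.872 to 1.04 in WT8 shBMAL1, and the 3 immunoproteasome ratios are lower with shBMAL1 in both lines without overlap.

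NLRC5, the class I transactivator (chromosome 16, 57023397 to 57117443, plus strand), was the member of lowest level per kb in every group. It had 21.2, 19.8 and 20.4 CPM in 786-O shControl and 16.7, 18.6 and 17.5 CPM in 786-O shBMAL1. In WT8 it had 23.4, 20.5 and 22.6 CPM with shControl and 13.8, 15.7 and 12.9 CPM with shBMAL1. The groups did not overlap in either line, and the margin was wider in WT8. The log2 change was -0.22 (SE 0.08, adjusted p 0.0336) in 786-O and -0.65 (SE 0.08, adjusted p 2.38e-08) in WT8, and the interaction was -0.43 (SE 0.12, adjusted p 0.00278). In 786-O the call rested on single libraries: without shControl replicate 1 the change was -0.20 (adjusted p 0.104) and without shBMAL1 replicate 1 it was -0.19 (adjusted p 0.124) in edgeR.

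**Figure D4:**
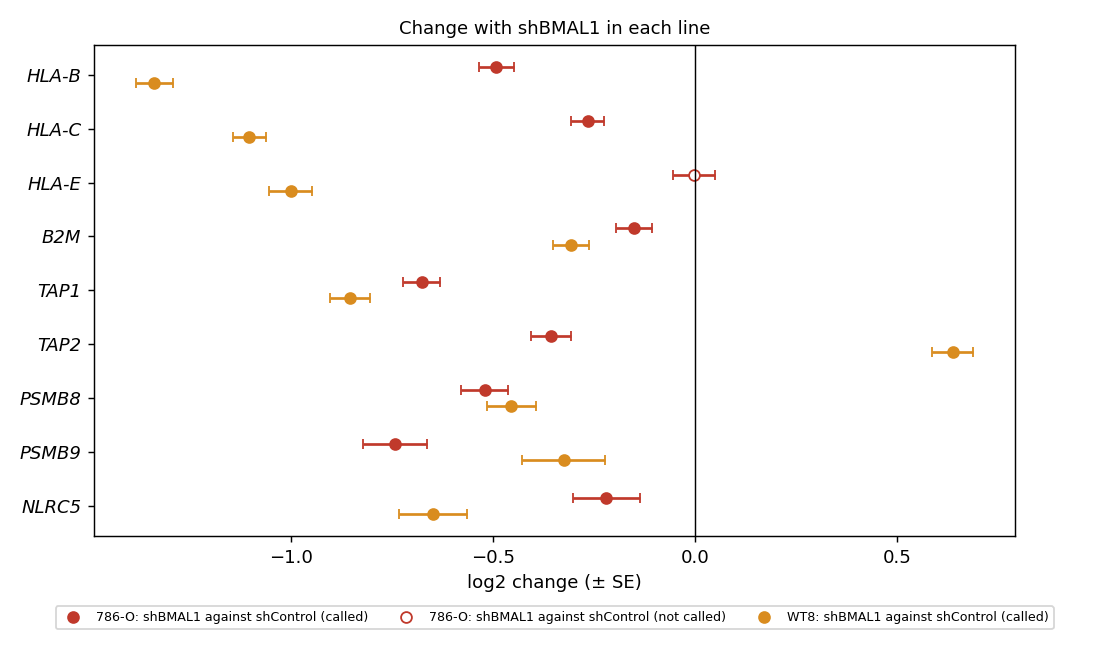
Log2 change with shBMAL1 against shControl (x axis, ± SE) for the 9 genes in 786-O and WT8, where filled points were called at an adjusted p under 0.1 in edgeR. HLA-B, HLA-C and HLA-E lie further left in WT8 than in 786-O, PSMB9 lies further right, and TAP2 is on opposite sides of 0.

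In the test of the interaction itself, 8 of the 9 genes were called, against 56.0% of all genes (27.4% higher, 28.5% lower). The interaction was negative for HLA-B, HLA-C, HLA-E, B2M, TAP1 and NLRC5, positive for TAP2 and PSMB9, and not called for PSMB8. Its median over the 9 genes was -0.18, against -0.03 over all genes. With a fold over 1.5 required, HLA-B, HLA-C and HLA-E (negative) and TAP2 (positive) were called, against 18.6% of all genes (10.3% negative).

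WT8 was also compared with 786-O, which gives a difference between lines that cannot be assigned to VHL alone. These comparisons share their libraries with those above and are given beside them, not as further support. With shControl, 7 genes were lower in WT8, HLA-E was higher and NLRC5 was not called, against 79.5% of all genes called (39.3% higher, 40.2% lower). Here PSMB9 differed most, at -2.35 (SE 0.09, adjusted p 3.96e-23), a 5.09-fold lower level. TAP1 was at -1.44 (SE 0.05, adjusted p 6.90e-25), TAP2 at -0.97 (SE 0.05, adjusted p 6.28e-19) and PSMB8 at -0.80 (SE 0.06, adjusted p 1.35e-14). The antigen processing genes of this chromosome 6 cluster were thus all lower in WT8. HLA-B was at -0.96 (SE 0.04, adjusted p 1.80e-20), HLA-C at -0.71 (SE 0.04, adjusted p 1.27e-17) and B2M at -0.25 (SE 0.04, adjusted p 7.04e-06). HLA-E was the exception, at 0.53 (SE 0.05, adjusted p 2.60e-11), and NLRC5 was at 0.12 (SE 0.08, adjusted p 0.202) with overlapping groups. Without WT8 shControl replicate 2, NLRC5 was called (0.17, adjusted p 0.0907), and so it was with libraries scaled by total counts only (0.23). The other 8 genes did not overlap between the lines, against 77.5% of all genes, and the median of the 9 was -0.80, against 0.00 over all genes. With a fold over 1.5 required, 6 were called, all lower, against 41.5% of all genes (21.9% lower), and HLA-E and B2M lost the call.

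With shBMAL1 in both lines, 8 of the 9 genes were lower in WT8, against 73.0% of all genes called (36.0% higher, 37.0% lower). HLA-B was 3.5-fold lower at -1.81 (SE 0.05, adjusted p 2.46e-28) and HLA-C 2.92-fold lower at -1.54 (SE 0.04, adjusted p 1.86e-27). The widest gap was again PSMB9, at -1.93 (SE 0.09, adjusted p 7.88e-20), followed by HLA-B and TAP1 (-1.62, SE 0.05, adjusted p 8.06e-26). HLA-E, higher in WT8 with shControl, was lower there with shBMAL1, at -0.47 (SE 0.05, adjusted p 9.82e-10). PSMB8 was at -0.73, B2M at -0.40 and NLRC5 at -0.31, all called. TAP2 overlapped between the lines and was not called, at 0.02 (SE 0.05, adjusted p 0.698), but was called with total counts only (0.13). The groups did not overlap for 8 of the 9 genes, against 71.0% of all genes, and the median was -0.73, against 0.00 over all genes. With a fold over 1.5 required, HLA-B, HLA-C, TAP1, PSMB8 and PSMB9 were called, all lower, against 29.8% of all genes (17.7% lower).

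Levels can be compared between genes per kb of the annotated canonical transcript. B2M was highest in every group, with 675 ± 19.7 CPM per kb (SD, n = 3) in 786-O shControl, followed there by HLA-B (562 ± 12.9) and HLA-C (419 ± 6.31). Light chain transcript was therefore above HLA-B, HLA-C and HLA-E, each taken alone. B2M pairs with all of them, and together they exceeded B2M in 786-O shControl, 786-O shBMAL1 and WT8 shControl. Only in WT8 shBMAL1 were they together below it, and further heavy chains are not in this comparison. In 786-O shControl the order went on with TAP1 (75.1 ± 1.58), PSMB8 (72.2 ± 0.693), HLA-E (51.3 ± 1.92), PSMB9 (31.1 ± 1.59), TAP2 (20.2 ± 0.560) and NLRC5 (3.02 ± 0.108). In WT8 shBMAL1 B2M was at 459.7 ± 20.9 CPM per kb. HLA-C (119.6 ± 3.25) and HLA-B (114 ± 6.36) came next and differed by less than the sum of their SDs. Within each of the 3 libraries HLA-C was above HLA-B, with a ratio of HLA-B to HLA-C per kb of 0.924 to 0.987. This ratio was added after the values were seen, and the uncertain split of reads between these loci leaves their order open. TAP2 (16.0 ± 0.555) and TAP1 (15.3 ± 0.868) were also neighbours within their spread. In 786-O shBMAL1 the same held for HLA-E (51.3 ± 1.46) and PSMB8 (50.3 ± 4.07), and for PSMB8 and TAP1 (47.0 ± 1.02).

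Over the 12 libraries, the genes differed in how they followed the rest. The Pearson correlation of log2 CPM with the mean of the other 8 members was 0.987 for HLA-B, 0.977 for HLA-C, 0.974 for TAP1, 0.973 for B2M and 0.966 for PSMB8. It was 0.872 for PSMB9, 0.632 for NLRC5, 0.351 for HLA-E and 0.206 for TAP2. HLA-B, HLA-C, TAP1, B2M and PSMB8 thus shared 1 pattern over the groups, from which TAP2 and HLA-E departed most. These are descriptions over 4 groups of 3 libraries that share their group means, and carry no p. Among 12939 other genes with a mean of at least 50 counts, the 5 closest to the mean pattern of the 9 were PARP10 (r = 0.995), GALNT14 (0.994), LSR (0.994), DCBLD2 (0.993) and PODXL (0.993). DCBLD2, for example, had 1026, 692, 477 and 219.9 CPM on average in 786-O shControl, 786-O shBMAL1, WT8 shControl and WT8 shBMAL1.

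The other genes of the pathway were taken from lists written from general knowledge. The rises and falls counted for each list below are calls, and are to be read against the shares over all genes tested. These were 24.5% higher and 24.4% lower in 786-O, and 32.9% higher and 36.9% lower in WT8. The further non-classical heavy chains listed, HLA-F and HLA-G, both fell in 786-O (median -0.66) and in WT8 (median -1.34). HLA-F fell, at -0.84 (SE 0.11, adjusted p 2.01e-07) in 786-O and -1.55 (SE 0.12, adjusted p 2.11e-13) in WT8. HLA-G, at 1.16 to 2.51 CPM on average per group, was at -0.49 (SE 0.22, adjusted p 0.0669) and -1.12 (SE 0.22, adjusted p 4.08e-05), both called. The uncertain split of reads between class I loci applies here too. It weighs most on HLA-G, with 37 to 99 counts per library, so its fall may not be separate from that of the abundant heavy chains.

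Of the class I-like genes, 5 of 6 were tested and CD1D had too few counts. In 786-O 1 rose and 1 fell (median 0.07), and in WT8 2 rose and 2 fell (median 0.22). MICA and MICB, stress-induced ligands of the NK cell receptor NKG2D that bind no B2M, rose in WT8, by 0.81 (SE 0.05, adjusted p 1.37e-15) and 2.29 (SE 0.10, adjusted p 4.88e-21). In 786-O, MICB rose by 0.30 (SE 0.09, adjusted p 0.00689) and MICA was at 0.07 (SE 0.05, adjusted p 0.305), not called. MR1, which presents vitamin B metabolites to MAIT cells, fell in 786-O, at -0.81 (SE 0.13, adjusted p 5.83e-06), and in WT8, at -0.52 (SE 0.14, adjusted p 0.0015). FCGRT, the heavy chain of the neonatal Fc receptor, fell in WT8 from 2.78 to 0.258 CPM on average, -3.41 (SE 0.28, adjusted p 3.49e-13), and in 786-O was at 0.24 (SE 0.17, adjusted p 0.297).

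Of 7 genes of peptide loading and trimming, 2 rose and 2 fell in 786-O (median 0.00), and 3 rose and 2 fell in WT8 (median 0.06). The ER aminopeptidase ERAP2 fell in 786-O (-0.28, SE 0.04, adjusted p 2.52e-06) and rose in WT8 (0.34, SE 0.05, adjusted p 6.81e-08), as TAP2 did. ERAP1, its partner in trimming, rose in WT8 (0.37, SE 0.06, adjusted p 1.26e-06). The chaperone CALR rose in 786-O (0.17, SE 0.04, adjusted p 0.00224) and the disulfide isomerase PDIA3 fell in WT8 (-0.25, SE 0.04, adjusted p 2.94e-06). All 7 were lower in WT8 than in 786-O with shControl (median -0.92), where 40.2% of all genes were called lower.

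Of 7 further proteasome genes, 6 fell in 786-O (median -0.13), against 24.4% of all genes called lower there. In WT8 5 rose and 2 fell (median 0.31), against 32.9% of all genes called higher and 36.9% lower. PSMB10, the third inducible subunit, fell in both lines, at -0.48 (SE 0.06, adjusted p 1.07e-07) in 786-O and -0.27 (SE 0.07, adjusted p 5.09e-04) in WT8. PSME3, the nuclear activator PA28γ, fell in both as well, at -0.49 (SE 0.04, adjusted p 5.02e-12) and -0.52 (SE 0.04, adjusted p 2.62e-13). The interferon-inducible activator PA28αβ behaved otherwise in WT8, where PSME1 rose by 0.20 (SE 0.05, adjusted p 9.64e-04) and PSME2 by 0.40 (SE 0.06, adjusted p 3.44e-07). The inducible subunits thus fell in WT8 where their constitutive counterparts and PA28αβ rose.

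Of the 7 factors that hold the X and Y boxes of class I promoters together with NLRC5, 1 rose and 2 fell in 786-O (median -0.16), and 2 rose and 3 fell in WT8 (median -0.04). RFX5, which binds the X1 box, fell, at -0.95 (SE 0.07, adjusted p 3.61e-14) in 786-O and -0.67 (SE 0.06, adjusted p 2.38e-11) in WT8. NFYB, a subunit of the Y box factor, fell in 786-O (-0.21, SE 0.09, adjusted p 0.0479) and rose in WT8 (0.68, SE 0.09, adjusted p 2.78e-08). NFYC, another subunit, rose in both (0.18, SE 0.06, adjusted p 0.0266, and 0.34, SE 0.06, adjusted p 2.31e-05).

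Of 13 genes of interferon signalling and class I induction, 3 rose and 6 fell in 786-O (median -0.08), and 5 rose and 4 fell in WT8 (median -0.04). IRF9, the DNA-binding subunit of the type I interferon complex ISGF3, fell, at -0.53 (SE 0.09, adjusted p 9.45e-06) in 786-O and -1.63 (SE 0.09, adjusted p 1.91e-18) in WT8, and STAT2, another subunit of it, fell too, at -0.37 and -0.50. IRF1, the factor that binds the class I interferon element, instead rose in 786-O (0.33, SE 0.05, adjusted p 2.57e-06) and was at -0.04 (SE 0.05, adjusted p 0.494) in WT8. IFNGR2, a chain of the interferon-γ receptor, rose in both (0.42, SE 0.06, adjusted p 2.47e-07, and 0.81, SE 0.06, adjusted p 2.26e-14).

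None of the 5 interferon ligands had enough counts to be tested. IFNG and IFNA1 had 0 counts in every library, IFNB1 and IFNL1 at most 2, and IFNE at most 8 counts, in 786-O shBMAL1. At this depth a count of 0 allows up to 3 counts. Of the inhibitors, SOCS1 and SOCS3 rose in 786-O (1.02, SE 0.23, adjusted p 3.59e-04, and 0.80, SE 0.11, adjusted p 1.08e-07) and fell in WT8 (-0.72, SE 0.26, adjusted p 0.0168, and -0.21, SE 0.09, adjusted p 0.0432), and USP18 fell in 786-O (-1.45, SE 0.18, adjusted p 2.42e-08) and was at -0.32 (SE 0.17, adjusted p 0.111) in WT8. Their medians were 0.80 in 786-O and -0.32 in WT8, over 3 genes.

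**Figure D5:**
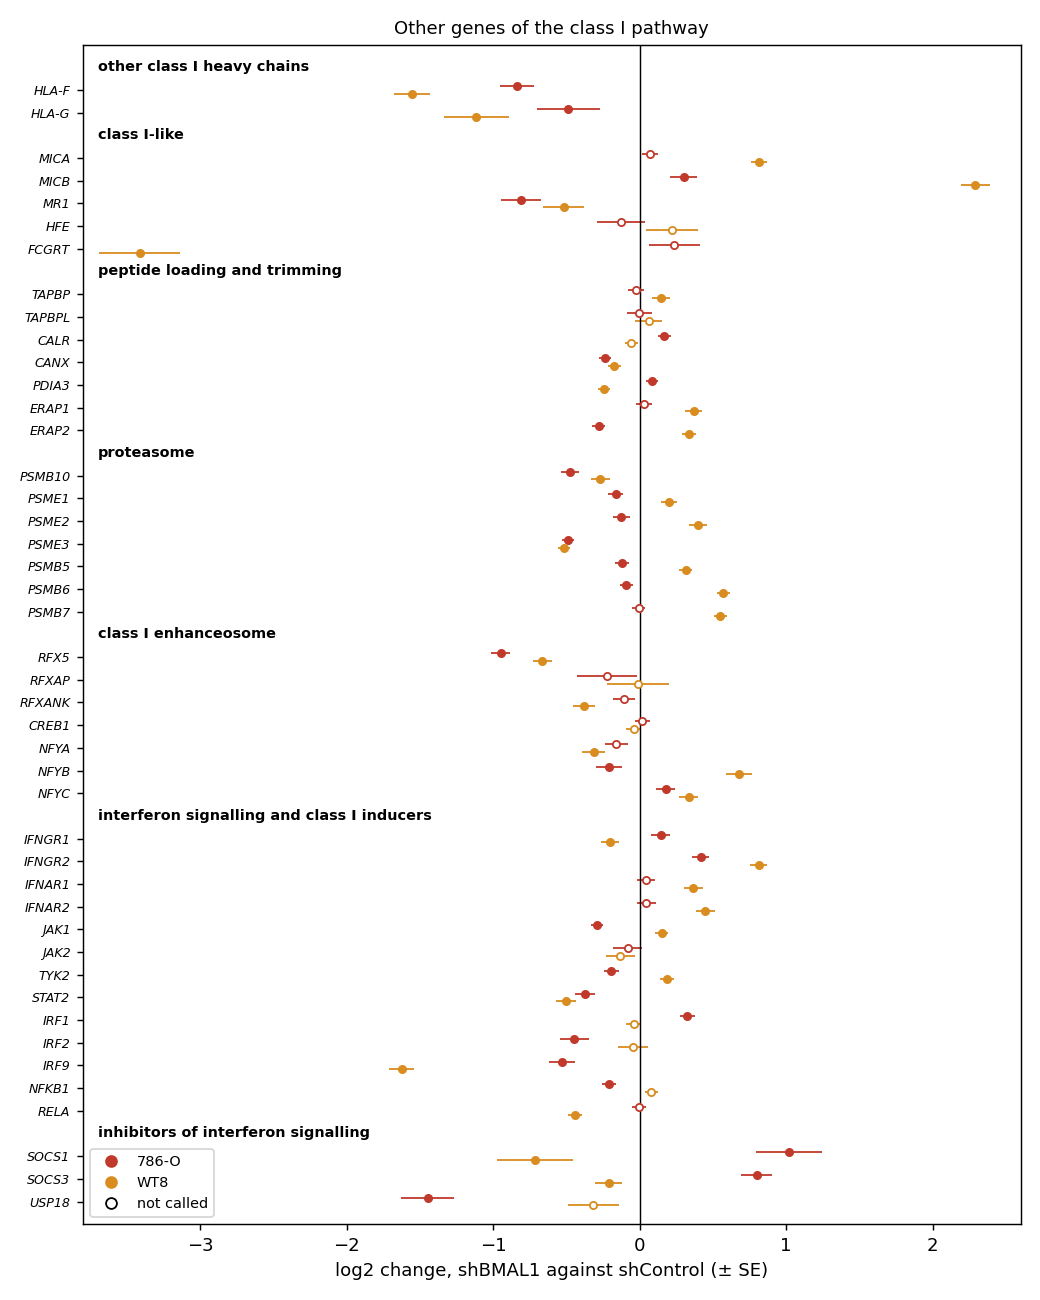
Log2 change with shBMAL1 against shControl (x axis, ± SE) in 786-O and WT8 for the tested genes of 7 lists of the class I pathway, with open points for genes not called. STAT2, IRF9, RFX5, HLA-F and PSMB10 lie left of 0 in both lines, while PSMB5, PSMB6, ERAP2 and NFYB lie left of 0 in 786-O and right of 0 in WT8.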

How the data were processed

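RNA from 12 cell line cultures was sequenced by the study as read pairs from stranded mRNA libraries. The methods name SeqMan NGen with GRCh37 and export of counts from ArrayStar, while the tools and build in the submitters' processing notes are STAR, DESeq2 and hg38, so the aligner and build behind the table are uncertain, and the annotation, the use of strand and the handling of reads with several alignments are not given in the sources used here. The authors deposited estimated counts per gene, not scaled between libraries: 0.028 stood in for 0 (47.0% of the values) and 5.67% of the others were not whole, while the design of the tests had taken them for whole counts. For the fit 0.028 became 0, lines sharing a name were summed (45 names on 98 lines, 0.100% of the reads) and values were rounded.

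filterByExpr kept 16838 of 26925 genes with a count and removed 10087. A mean per group was fitted over all 12 libraries with edgeR 4.0.16 in R 4.3.3 (TMM factors 0.948 to 1.04, robust quasi-likelihood F test, common biological coefficient of variation 5.70%), and the 5 contrasts had their p-values adjusted over the tested genes (Benjamini-Hochberg) and called under 0.1, the rate of the study. The SE is the size of the log2 change over the square root of F. Fits were tested on simulated data before use. Replicates of a group differed by more than counting noise (chi-square per gene 4.51 to 12.6), so none was counted as a duplicate. Floors allow for counting error alone, as reads copied by PCR are not separate molecules.

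Members and lists were chosen with earlier results of these data known. Values are given for all 9 members, for BMAL1 and VHL, for any gene of the lists with at least the largest called rise and fall of each in the 2 shBMAL1 comparisons, and for the 5 genes most like the mean of the members. Gene positions and lengths are from GENCODE version 44 on GRCh37, and promoter windows from RefSeq on GRCh38.p14. The alternatives were RLE scaling, total counts only, no filter, DESeq2 1.42.0, a replicate block, only the groups compared, 1 line per name, a required fold over 1.5, each library left out and, added after the data were seen, HLA-B and HLA-C as 1 row. Some genes of the lists are not reported here and are left out of the counts of each list.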

Additional observations from a re-analysis of the deposited data

Results flagged for a closer look

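The change with shBMAL1 differed between the lines, by the interaction in edgeR (log2 change in WT8 minus that in 786-O, adjusted p under 0.1), for 8 of the 9 members. The values were -0.85 for HLA-B, -0.84 for HLA-C, -0.998 for HLA-E, -0.15 for B2M, -0.18 for TAP1 and -0.43 for NLRC5, and they were positive for TAP2 (1.00) and PSMB9 (0.42). The checked genes ARNTL (-0.86) and VHL (-0.65) differed too. So did the other heavy chains HLA-F (-0.71) and HLA-G (-0.63), and the class I-like MICA (0.74), MICB (1.99) and FCGRT (-3.65). In loading and trimming these were ERAP1 (0.34), ERAP2 (0.62), CALR (-0.22) and PDIA3 (-0.33). In the proteasome they were PSMB10 (0.21), PSME1 (0.36), PSME2 (0.52), PSMB5 (0.43), PSMB6 (0.66) and PSMB7 (0.56). Among factors and signalling genes they were RFX5 (0.28), NFYB (0.89), IRF1 (-0.37), IRF9 (-1.10), IFNGR2 (0.40), JAK1 (0.44), SOCS1 (-1.73), SOCS3 (-1.01) and USP18 (1.13). Of all genes tested, 56.0% passed the same test, so a difference between the lines was common.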

How the results depend on the processing

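The size of the change set the one large dependence. When a fold over 1.5 was required in the edgeR test, 0 members were called in 786-O (990 genes), 4 in WT8 (HLA-B, HLA-C, HLA-E and TAP1, all lower, 4313 genes), 4 in the interaction (3134 genes), 5 between the lines with shBMAL1 (5023 genes) and 6 between the lines with shControl (6993 genes), where HLA-E and B2M lost the call. In 786-O 8 members had passed at an adjusted p under 0.1 with no fold required. HLA-E in 786-O, which was not called, changed sign under RLE scaling (0.00749), total counts only (0.00732) and DESeq2 (0.00762). With libraries left out in turn it ran from -0.0284 to 0.0233, and TAP2 between the lines with shBMAL1 from -0.00717 to 0.0482. Total counts only moved the median of all genes between the lines by 0.12 with shControl and 0.10 with shBMAL1, and called NLRC5 (0.23) and TAP2 (0.13) there. Over 8 settings, 324 of 351 values kept their direction and call, 22 lost a call, all under the required fold, 2 gained one and 3 changed sign; of 540 values with 1 library left out, 528 kept both. The counts of members called were then 7 to 8 in 786-O, 9 in WT8, 8 to 9 between shControl lines, 7 to 8 in the interaction and 8 between shBMAL1 lines.

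Same-numbered replicates did not deviate together (0 of 18 pairs had r over 0.1, range -0.0966 to 0.0872). With the replicate number as a block, 8, 9, 8, 8 and 8 members were called in the 5 comparisons, as without it, and 8055, 11622, 13268, 9246 and 12161 genes. The fit with only the groups compared cannot give the interaction. With 3 cultures a group, 1 control virus and 1 VHL line, these data compare these cultures. Promoter letters are on GRCh38.p14 and the build behind the counts is uncertain, and they were not joined.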
